A study of Mus musculus with 12 samples.

Results

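The 41 genes described here encode the glutamate receptors of the hippocampus and the proteins that hold and regulate them at the synapse. They were chosen by name, as the rows of the deposited table with the symbols of AMPA, NMDA, kainate, delta and metabotropic receptor subunits, AMPA receptor auxiliary subunits, postsynaptic scaffolds and the α and β subunits of Ca2+/calmodulin-dependent kinase II (CaMKII). All 41 symbols were found, each once, among 55487 rows. The rule used no expression value, although earlier results of these data were known when the members were chosen. RNA-seq was carried out on the hippocampus of 6 WT mice and 6 USF-1 KO mice on the C57Bl/6JRccHsd background, aged 3–4 months, with 1 library per mouse. The KO mice lack the transcription factor USF-1 constitutively, in neurons, glia and peripheral organs alike. They were bred from heterozygous parents together with their WT littermates, and the methods describe housing in single cages before behavioural testing. No further allele or treatment is named for either group. By the labels the WT group held 4 females and 2 males and the KO group 2 females and 4 males.

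Glutamate opens AMPA, NMDA and kainate receptors, which are ion channels made of several subunits, and it activates metabotropic receptors, which signal through G proteins. AMPA receptors carry most of the fast excitatory current, while NMDA receptors admit calcium and start the changes in synaptic strength that hippocampal learning depends on. Beneath the membrane, scaffolds of the PSD-95, Shank and Homer families link the receptors to each other and to kinases such as CaMKII. USF-1 binds the E-box, a DNA hexamer with the letters CACGTG, and the comparison of genotypes asks how the transcripts of these proteins stand in its absence.

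The letters of the E-box are shown first, because binding to it is what USF-1 is best known for. RefSeq promoters on GRCm38.p6, each from 250 bases before to 50 bases after an annotated start, were matched for 27 of the 41 genes and numbered 40. CACGTG, which reads the same on both strands, occurred in 4 of these 40 promoters (10%), which belong to Cnih3, Grin1 and Dlg1, against 2349 of 32851 promoters of all genes (7.15%). The hexamers lay at position −199 from the start of Cnih3, at −181 and −85 in Grin1, and at −84 and −10 before 2 starts of Dlg1. The lines give each of them in capitals with its neighbouring bases, 5′ to 3′ on the strand of the gene. The windows are chr1:181352389-181352474 (forward strand), chr2:25319323-25319408 and chr2:25319227-25319312 (reverse strand), and chr16:31663811-31663896 and chr16:31663393-31663442 (forward strand), all outside annotated exons.
Cnih3: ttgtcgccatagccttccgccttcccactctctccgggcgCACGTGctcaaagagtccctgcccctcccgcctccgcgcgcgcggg
Grin1, distal: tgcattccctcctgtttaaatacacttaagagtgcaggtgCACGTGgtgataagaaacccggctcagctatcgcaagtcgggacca
Grin1, proximal: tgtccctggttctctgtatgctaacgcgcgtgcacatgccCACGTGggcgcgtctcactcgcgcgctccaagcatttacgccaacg
Dlg1, later start: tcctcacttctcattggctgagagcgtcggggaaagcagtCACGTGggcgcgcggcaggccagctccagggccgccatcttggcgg
Dlg1, earlier start: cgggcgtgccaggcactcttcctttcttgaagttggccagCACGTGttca
A stretch of 150 bases upstream of Grm3 and Grm2, the members with the lowest p between genotypes, is also given. It held 0 matches to CACGTG or to the looser pattern CANNTG in either gene, so that no base is in capitals. This stretch is shorter than the promoters counted here, so its 0 cannot be set against their shares. The sites at −199 in Cnih3 and −181 in Grin1 would lie outside a stretch of that length. Neither window adjoins the deposited gene, which ends at 9725170 for Grm3 and at 106656082 for Grm2. The windows are chr5:9725353-9725502 and chr9:106656110-106656259, both on the reverse strand.
Grm3: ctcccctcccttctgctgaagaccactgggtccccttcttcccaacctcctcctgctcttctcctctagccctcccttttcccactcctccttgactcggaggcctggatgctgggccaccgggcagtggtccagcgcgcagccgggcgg
Grm2: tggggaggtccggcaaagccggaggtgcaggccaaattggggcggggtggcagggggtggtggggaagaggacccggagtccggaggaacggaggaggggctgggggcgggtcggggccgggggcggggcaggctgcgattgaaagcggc
CANNTG, which contains every CACGTG, occurred in 24 of the 40 promoters (60%) and in 72.3% of all promoters. Binding of USF-1 was not measured in these samples, and the letters alone do not mark a bound site.

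The values are normalised counts, that is, the reads on each gene after division by the size factor of that library. Between 23369928 and 32091173 reads fell on genes in WT mice and between 21679622 and 30859179 in KO mice. Every member had reads in every mouse, from a lowest single value of 86.1 (Grm8) upwards. The targeted gene Usf1 stood at 117 to 163 normalised counts in KO mice and at 1425 to 1583 in WT mice except WT493, which had 842. A few libraries stood apart in markers of neighbouring tissue. The summed choroid plexus markers (7 genes, all with reads in every mouse) reached 57685 in WT490 and 162952 in WT493, against 773 to 2702 in the others. The summed thalamus markers (5 genes) reached 4246 in WT490 and 4755 in KO488, against 812 to 2503 elsewhere. Summed neocortex markers (5 genes) ranged from 2817 to 5581 in WT and from 2338 to 5130 in KO mice. Of these genes, WT522 was the highest mouse in Rorb (757, next KO484 with 580) and Cux2 (2282, next KO488 with 1508). It was not the highest in Lamp5, Rspo1 or Tshz2, and its Tshz2 (625) exceeded that of KO553 alone. The part of neocortical tissue in the values of WT522 was not tested. Markers of CA1, CA2 and CA3 pyramidal neurons and of dentate granule cells were present in all 12 libraries. In bulk tissue, fewer cells of a type and less RNA per cell cannot be told apart.

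Few of the synaptic genes passed the test between genotypes. All 41 members passed the limit on low values and were tested, and 1 of them, Grm3, had an adjusted p under 0.05 with limma, lower in KO mice. Over all 18221 genes tested the share of such genes was 0.9%, and 0.741% were called lower. At an unadjusted p under 0.05 there were 9 members (22.0%), against 13.5% of all genes. Of these, 7 were higher in KO mice (Grm2, Grid1, Grik2, Grm7, Grin1, Grik5 and Camk2b) and 2 lower (Grm3 and Dlg1), where 5.92% of all genes were higher and 7.6% lower by the same measure. The log2 fold change of KO over WT was above 0 in 28 members (68.3%), against 49.8% of all genes. Its median was 0.08 over the members, with a range from −0.43 to 0.35, beside a median of −0.00065 over all genes. Markers of excitatory neurons and dentate granule cells differed in the same direction, although 0 of them were called. All 5 excitatory neuron markers had a log2 fold change above 0 (summed level 44013 to 53032 in WT and 44077 to 63493 in KO mice), as had all 6 dentate granule markers (6777 to 12741 and 7886 to 12597), while all 6 oligodendrocyte markers were below 0. Other neuronal lists were mixed, with 5 of 6 inhibitory neuron, 2 of 5 CA1, 1 of 4 CA2 and 1 of 5 CA3 markers below 0. The part of these cell types in the shift of the members was not tested. Without WT490 and WT493, whose choroid plexus markers were high, 23 of the 41 members lay above 0, against 9278 of all 18221 genes. Without WT522, 33 members did, against 9284 of all genes. In 0 members did the 6 KO mice lie clear of the 6 WT mice, a separation found in 1.5% of all genes.

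**Figure D1:**
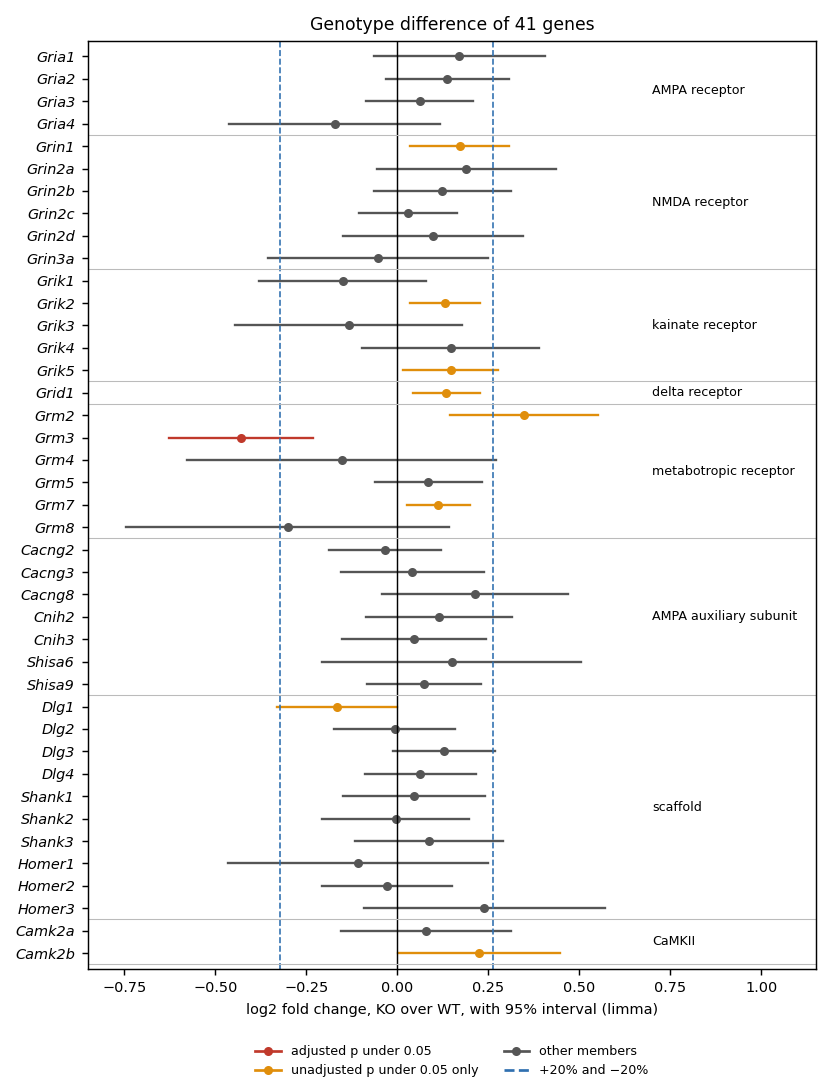
The plot shows the log2 fold change of KO over WT on the log2(normalised count + 1) scale for each of the 41 genes by class, with its 95% interval from limma, and dashed lines at changes of 20% either way. Only the interval of Grm3 belongs to an adjusted p under 0.05. The intervals of 15 genes lie between the dashed lines and those of 26 reach beyond them.

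The intervals set how large a change could have gone unseen. The standard error of the log2 fold change was 0.093 in the median member, with a range from 0.04 (Grm7) to 0.21. The 95% interval lay within 20% of the WT level on both sides in 15 members (36.6%), against 50.8% of all genes. For the other 26 members a change of that size lay inside the interval, in at least 1 direction. The median coefficient of variation of the members between mice of a genotype was 11.9% in WT and 12.3% in KO mice, against 7.63% and 7.12% over the 12677 genes with a mean over 100. Without KO488, 19 members had an unadjusted p under 0.05, 14 higher and 5 lower, against 16.9% of all genes. Without WT490 and WT493, the libraries high in choroid plexus markers, 3 members did (Grm3, Grm2 and Grid1), against 9.47% of all genes, and the median log2 fold change of the members was 0.04. Without WT490 and KO488, the libraries high in thalamus markers, 12 members did, against 12.6% of all genes. With sex as a covariate there were 6, against 11.8%, and without WT522 there were 8, against 16.2%.

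AMPA receptor channels are built from Gria1 to Gria4. Gria1, the most abundant of them, had between 23446 and 33911 normalised counts in WT mice (median 29261) and between 25866 and 38686 in KO mice (median 32805). The mean was 29083 ± 3800.1 in WT and 32836 ± 5226 in KO mice (SD, n = 6 each), and the log2 fold change of 0.17 missed the threshold (limma adjusted p = 0.538, interval −0.07 to 0.41). WT522 was the lowest mouse and KO553 the highest, and the WT mean was exceeded in 4 of 6 KO mice. Gria2, whose subunit keeps calcium out of the channel, ranged from 15460.2 to 18840.2 in WT (median 16447) and from 15504 to 21487 in KO mice (median 18984), a log2 fold change of 0.14 (limma adjusted p = 0.475). Gria4, the subunit typical of interneurons and of tissue beyond the hippocampus, differed in the other direction. It ranged from 1355 to 2084 in WT (median 1755) and from 1184 to 2187 in KO mice (median 1488), a log2 fold change of −0.17 (limma adjusted p = 0.621, interval −0.46 to 0.12). Single mice moved this value, to −0.27 without KO488 and to −0.098 without KO530. Its highest value came from KO488, the KO library with raised thalamus markers, and the part of those markers in it was not tested. Gria3 differed least, by 0.06 on the log2 scale. Thus 3 of 4 AMPA receptor genes had a log2 fold change above 0, with a median of 0.10, and 0 passed the test with limma (0 also at an unadjusted p under 0.05).

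NMDA receptors need the subunit of Grin1, which every channel contains, together with subunits of Grin2a to Grin2d or Grin3a. Grin1 (chromosome 2, 25291181 to 25319187, reverse strand) had between 14542 and 17183 normalised counts in WT mice (median 16234) and between 15839 and 19745 in KO mice (median 18355). In 4 of 6 KO mice it was above every WT mouse, while KO488 and KO482 lay within the WT range. The log2 fold change of 0.17 had an unadjusted p of 0.0168 but an adjusted p of 0.240 from limma, and a two-sided exact permutation test of this gene gave p = 0.0325. Without WT490 and WT493 the log2 fold change was 0.11 (limma adjusted p = 0.662). Grin2a and Grin2b encode the main regulatory subunits of adult and of developing or extrasynaptic receptors. Grin2a ranged from 7119.8 to 9453 in WT (median 7919) and from 7058 to 11147 in KO mice (median 9918), the log2 fold change being 0.19 (limma adjusted p = 0.506). Grin2b ranged from 15893 to 19258 in WT (median 17782) and from 15464 to 22285 in KO mice (median 19999), with 0.12 on the log2 scale (limma adjusted p = 0.582). Both genes had 4 KO mice above every WT mouse and 1 KO mouse below every WT mouse, so that the KO group spread wider than the WT group at both ends. Grin2c, Grin2d and Grin3a stood at 0.03, 0.10 and −0.05 on the log2 scale, with adjusted p from limma between 0.764 and 0.908. Of the 6 NMDA receptor genes 5 lay above 0, with a median of 0.11.

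Kainate receptors combine subunits of Grik1 to Grik3, which form channels by themselves, with the high-affinity subunits of Grik4 and Grik5, which do not. Grik2 (chromosome 10, 49094833 to 49788766, reverse strand) had between 1578 and 1864 normalised counts in WT mice (median 1627) and between 1746 and 1952 in KO mice (median 1789). Of the WT mice, WT523 alone reached into the KO range, and the next highest WT mouse stood at 1655. The log2 fold change was 0.13 (limma standard error 0.04, adjusted p = 0.203), with 6 of 6 KO mice above the WT mean (two-sided exact permutation test, p = 0.0130), and without WT523 the adjusted p was 0.0800. Grik5 (chromosome 7, 25009849 to 25072346, reverse strand) ranged from 6366 to 8172 in WT (median 7076) and from 6988 to 8785 in KO mice (median 8013). WT522, the highest WT mouse, exceeded all KO mice but 1, and the log2 fold change was 0.15 (limma adjusted p = 0.302). Grik1, a gene of interneurons with low counts in this tissue, ranged from 300.1 to 387 in WT (median 348) and from 258 to 412 in KO mice (median 310.2), a log2 fold change of −0.15 (limma adjusted p = 0.584). Grik3 and Grik4, at −0.13 and 0.15 on the log2 scale with adjusted p from limma of 0.740 and 0.614, spread widely, Grik3 through WT522 and Grik4 within the KO group. In this class 3 of 5 genes were above 0, with a median of 0.13.

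Grid1 encodes a delta receptor, which is related to the ion channels by sequence and acts as an adhesion molecule across the synapse. The gene is on chromosome 14, 34820108 to 35583379, forward strand. Its normalised count was 1719.6 to 1954 in WT mice (median 1886) and 1879.5 to 2171 in KO mice (median 2066). In 5 of 6 KO mice it exceeded every WT mouse. The difference was small but close between mice, 1869 ± 82 (SD, n = 6) against 2054 ± 103 (SD, n = 6), or 9.83% on the fitted scale with an interval of 3.12% to 17%. It missed the threshold (log2 fold change 0.14, standard error 0.04, limma adjusted p = 0.162, two-sided exact permutation test p = 0.00866).

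The metabotropic receptors held the only member that passed the test and the member next to it. Grm3 encodes mGluR3, a receptor that lowers cyclic AMP and is found on astrocytes and oligodendrocyte precursors as well as on neurons. Its locus is chromosome 5, 9485541 to 9725170, on the reverse strand. Among WT mice Grm3 had between 811 (WT493) and 1265 (WT522) normalised counts, with a median of 991. Among KO mice it had between 660.0 (KO553) and 882 (KO482), with a median of 724. In 5 of 6 KO mice Grm3 lay below every WT mouse, and KO482 lay above WT493 alone. Grm3 fell in KO mice, with a mean of 999 ± 151 in WT and 738 ± 77.2 in KO mice (SD, n = 6 each) and a log2 fold change of −0.43 (limma standard error 0.09, adjusted p = 0.0472), with 6 of 6 KO mice below the WT mean (two-sided exact permutation test, p = 0.00433). The size was −25.7% with a 95% interval from −35.3% to −14.8%.

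The fall of Grm3 kept its direction under all 24 alternatives but was close to the threshold. Its log2 fold change ranged from −0.50 to −0.36 and its adjusted p from 0.00149 (DESeq2) to 0.147 (limma without WT490 and KO488), and 8 of the 24 passed. With sex as a covariate the adjusted p from limma was 0.116, and without WT522 the log2 fold change was −0.36 (adjusted p = 0.0241). Without WT493, the WT mouse with low Usf1, it was −0.49 (limma adjusted p = 0.0202), and without KO482 it was −0.48 (0.0288). Leaving out any other single mouse (WT490, WT523, WT547, WT573, KO484, KO488, KO530, KO553 or KO564) raised the adjusted p from limma to between 0.0645 and 0.121, with log2 fold changes from −0.45 to −0.40. DESeq2 on the recovered reads called 2 members, Grm3 and Grm2, where it called 3.74% of all genes, and edgeR called 1, Grm3, where it called 0.829%. Markers of glial cells are given beside this result, although only astrocytes and oligodendrocyte precursors are named above as carrying Grm3. The summed markers of oligodendrocyte precursors (3 genes, all with reads in every mouse) ranged from 3179 to 4154 in WT and from 2857 to 3244 in KO mice, and all 3 were lower in KO mice, although 0 were called. Those of oligodendrocytes (6 genes, all lower, 0 called) ranged from 83576 to 180879 in WT and from 71972 to 110270 in KO mice. Those of microglia (5 genes, all lower, 0 called) ranged from 5093 to 7359 and from 4821 to 5441. Those of astrocytes (5 genes, 3 lower, 0 called) covered nearly the same range, 29356 to 34391 in WT and 30138 to 33927 in KO mice. The part of these cell types in the result for Grm3 was not tested.

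Grm2 encodes mGluR2, the closest relative of mGluR3, which sits mainly on presynaptic terminals such as those of dentate granule cells. Its locus is chromosome 9, 106643095 to 106656082, on the reverse strand. Among WT mice Grm2 ranged from 1227 (WT493) to 1761, with a median of 1478, and among KO mice from 1565 to 2146 (KO564), with a median of 1855. In 5 of 6 KO mice Grm2 lay above every WT mouse. All 6 dentate granule markers also had a log2 fold change above 0 (0 called), with a median summed level of 8732 in WT and 11702 in KO mice, and their part in the result for Grm2 was not tested. The mean was 1479 ± 208 in WT and 1878 ± 217 in KO mice (SD, n = 6 each), a difference of 27.3% with an interval from 10.5% to 46.6%. Its log2 fold change of 0.35, the largest positive value of the 41 genes, had an adjusted p of 0.114 from limma (two-sided exact permutation test, p = 0.0108) and 0.0228 from DESeq2. Over its 24 alternatives the log2 fold change was between 0.30 and 0.40 and the adjusted p up to 0.354, reached without WT490 and WT493. Both members of this receptor pair therefore stood at the ends of the range of the 41 genes, in opposite directions.

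**Figure D2:**
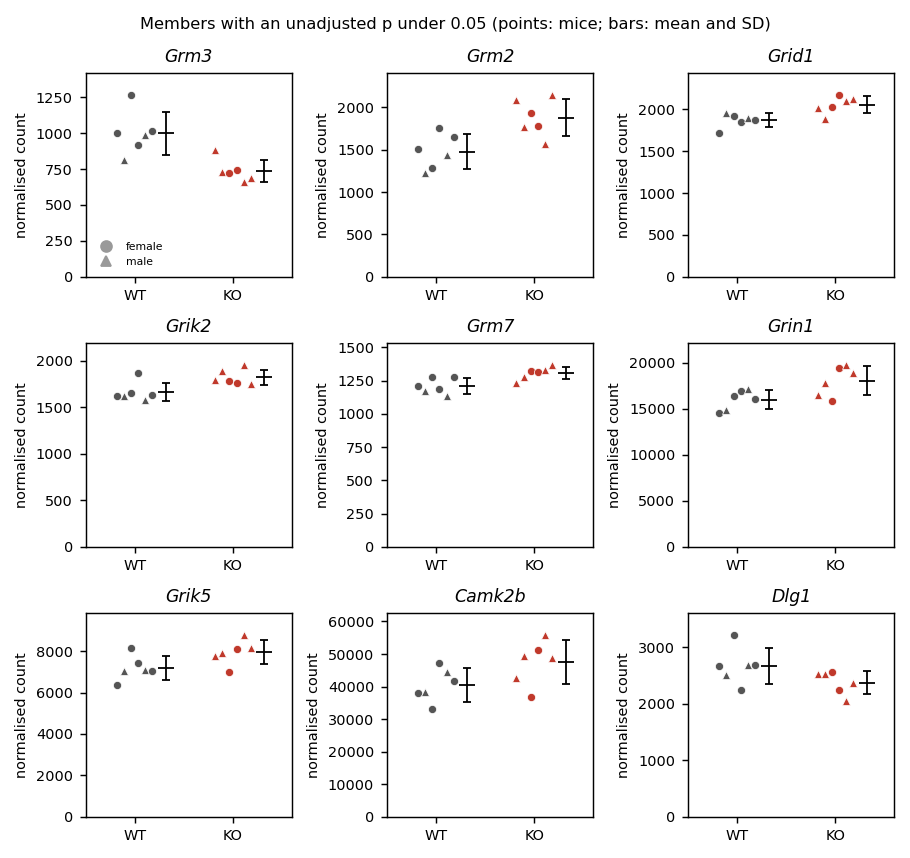
The plots show the normalised count in each mouse (circles for females, triangles for males) with the mean and SD of 6 mice per genotype for the 9 genes with an unadjusted p under 0.05, on axes that start at 0. In Grm3, 5 of 6 KO mice lie below all WT mice, and in Grm2, Grid1 and Grm7, 5 of 6 lie above them.

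Among the other metabotropic receptors, Grm7 encodes a presynaptic receptor of low glutamate affinity. Located on chromosome 6 (110645581 to 111567230, forward strand), it had the narrowest spread of the class. It ranged from 1130.5 to 1279.5 in WT (median 1200.0) and from 1231 to 1366 in KO mice (median 1318), and 5 of 6 KO mice exceeded every WT mouse. The log2 fold change of 0.11 did not pass (limma adjusted p = 0.230, two-sided exact permutation test p = 0.0130). Grm5, the main receptor of the class that raises calcium through phospholipase C, ranged from 5374 to 6199.7 in WT (median 5894) and from 5279.5 to 7500.1 in KO mice (median 6142), a log2 fold change of 0.09 (limma adjusted p = 0.631) that was 0.03 without KO530. Grm4 and Grm8, at −0.15 and −0.30 on the log2 scale, had the highest values of all 12 mice in KO488, with 787 and 219.7 normalised counts, and wide intervals that reached from −0.58 to 0.27 and from −0.75 to 0.14. Of the 6 metabotropic receptor genes 3 were above 0 and 3 below, with a median of −0.03.

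Auxiliary subunits set the trafficking and gating of AMPA receptors. Cnih2, the cornichon of hippocampal pyramidal cells, had between 7246 and 9129 normalised counts in WT (median 7898) and between 6917 and 10662 in KO mice (median 8783), with a log2 fold change of 0.12 (limma adjusted p = 0.636). Cacng8, which encodes the hippocampal TARP γ-8, ranged from 2088 to 2861 in WT (median 2468) and from 2104 to 3398 in KO mice (median 3007). It had 4 of 6 KO mice above every WT mouse, while KO488 and KO482 were low, and its log2 fold change of 0.21 had an adjusted p of 0.465 from limma (interval −0.04 to 0.47). Shisa6, a subunit that keeps receptors from desensitising, split the KO group. It stood at 956 in KO530 and in KO553 but at 473 in KO488, around a WT range of 548 to 756, so that 3 KO mice lay above and 2 below every WT mouse. Cacng2, Cacng3, Cnih3 and Shisa9 had log2 fold changes from −0.03 to 0.07. In the class 6 of 7 were above 0 with a median of 0.07, and 0 passed with limma (0 also at an unadjusted p under 0.05).

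The scaffolds divided evenly, 5 of 10 being above 0, with a median of 0.02. Dlg4, which encodes PSD-95, ranged from 21155 to 27069.6 in WT (median 23084) and from 20989 to 26499.8 in KO mice (median 24868), with a log2 fold change of 0.06 (limma adjusted p = 0.751, interval −0.09 to 0.22). Dlg1, which encodes SAP97, a relative that accompanies AMPA receptors to the membrane, is located on chromosome 16 (31663443 to 31875129, forward strand). Dlg1 ranged from 2249 to 3221 in WT (median 2684) and from 2050.3 to 2563 in KO mice (median 2444), with 6 of 6 KO mice below the WT mean and 2 below every WT mouse. Its log2 fold change of −0.17 did not pass the threshold (unadjusted p = 0.0495, limma adjusted p = 0.368). Shank1, the most abundant of the Shank scaffolds that link receptors to the actin skeleton, ranged from 17455 to 26307 in WT (median 19003) and from 18143 to 22539.7 in KO mice (median 20244). Its log2 fold change of 0.05 (limma adjusted p = 0.873) turned to −0.03 without WT490 and WT493. Homer3, which ties metabotropic receptors to calcium stores, ranged from 996 to 1614 in WT (median 1291) and from 1068 to 2213 in KO mice (median 1516), with a log2 fold change of 0.24 (limma adjusted p = 0.539, interval −0.09 to 0.57). Dlg2, Dlg3, Shank2, Shank3, Homer1 and Homer2 had adjusted p from limma between 0.421 and 0.990.

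CaMKII is the kinase that NMDA receptor calcium activates, and Camk2a is the most abundant of the 41 transcripts. Camk2a ranged from 97439 to 137422 in WT (median 114248) and from 93513 to 141931 in KO mice (median 126010.0). The log2 fold change was 0.08 (limma adjusted p = 0.804) and became −0.01 without WT490 and WT493. Camk2b (chromosome 11, 5969644 to 6066362, reverse strand), whose subunit anchors the kinase to actin, ranged from 32966 to 47286 in WT (median 40072) and from 36762 to 55853 in KO mice (median 49059). In 4 of 6 KO mice it exceeded every WT mouse, with KO488 and KO482 within the WT range, and the log2 fold change of 0.22 had an unadjusted p of 0.0491 and an adjusted p of 0.367 from limma.

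Levels between genes were compared per kilobase of exon, using merged exons of GENCODE M21, which makes the order approximate because the isoforms in use are not known. In WT mice Camk2a led with 15537 normalised counts per kb, clear of all other members. Cnih2 (5877), Gria1 (4813) and Camk2b (4439) followed with overlapping ranges, and the group was clear of Shank1 (1882). Below them came Dlg4 (1768) and Grin1 (1649), and 11 genes in all had over 1000 per kb. At the low end stood 6 genes under 100 per kb, namely Grm4 (89.3), Grin3a (88.4), Shisa6 (84.7), Grin2d (59.1), Grik1 (52.1) and, 920-fold under Camk2a, Grm8 (16.9). The ranges of 6 WT mice overlapped in 34 of the 40 pairs of neighbours, so that most places in the order are not separated. Within the classes Gria1 exceeded Gria2, Gria3 and Gria4, Grin1 exceeded Grin2b and Grin2a, Grik5 led the kainate receptors and Grm5 the metabotropic ones. The order was nearly the same in KO mice, in which Grm3 moved from rank 22 to 29 and Grm2 from rank 26 to 22.

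**Figure D3:**
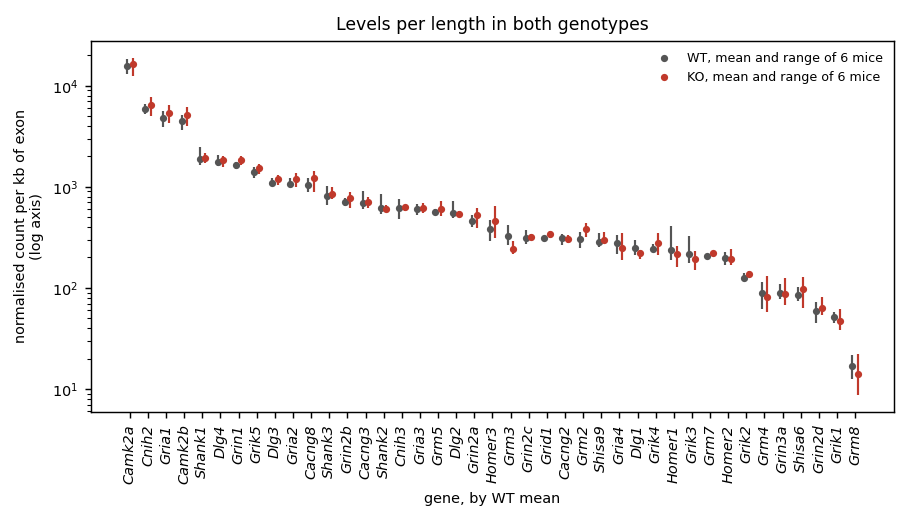
The plot gives the normalised count per kilobase of exon on a log axis for the 41 genes ordered by their WT mean, with points for the mean and bars for the range of 6 mice in each genotype. The means run from 15537 per kb (Camk2a) to 16.9 per kb (Grm8) in WT mice, and the ranges of the genotypes overlap in every gene.

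Ratios of 2 genes within each mouse are free of the size factor of the library. For 5 gene pairs they were compared with two-sided exact permutation tests, adjusted over the 5. The log2 ratio of Grm5 to Grm3 was 2.56 ± 0.25 in WT and 3.07 ± 0.26 in KO mice (SD, n = 6 each), a difference of 0.52 with an interval from 0.19 to 0.84 (exact permutation p = 0.0108, adjusted 0.0541). In 5 of 6 KO mice it was above the highest WT mouse, and this ratio contains Grm3, whose values are given above. The ratio of Dlg4 to Dlg1 differed by 0.23 (exact permutation p = 0.0887, adjusted 0.222). The ratio of Camk2a to Camk2b was 2.06 in WT522, while the other WT mice had 1.33 to 1.48 and KO mice 1.35 to 1.44, and the genotypes differed by −0.15 (exact permutation p = 0.139, adjusted 0.231). The ratio of Grin2a to Grin2b, which rises as synapses mature, differed by 0.07 (interval −0.07 to 0.20, exact permutation p = 0.310). The ratio of Gria2 to Gria1 differed by −0.03 (interval −0.18 to 0.12, exact permutation p = 0.647).

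**Figure D4:**
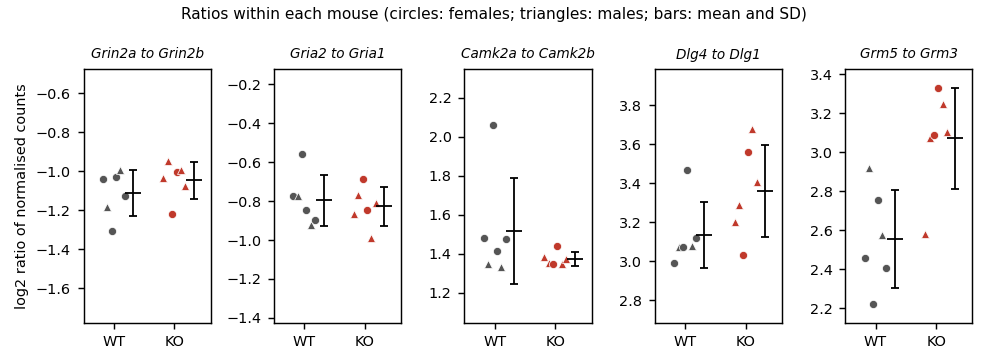
The plots show the log2 ratio of normalised counts of 5 gene pairs in each mouse (circles for females, triangles for males) with the mean and SD of 6 mice per genotype. The vertical axes cover the range of each ratio and do not start at 0. The ratio of Grm5 to Grm3 lies above the highest WT mouse in 5 of 6 KO mice, and WT522 stands alone in the ratio of Camk2a to Camk2b.

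The members also varied together between single mice. A principal component analysis of the 41 genes placed 55.7% of the variance on a first component, with positive loadings for 24 genes and negative ones for 17. Shisa6, Homer3, Cacng8, Grin2a, Camk2b and Gria1 had the largest positive loadings, and Grm8, Grm4, Gria4, Grin3a and Grik3 the largest negative ones. The scores were 1.75 in KO553, 1.19 in KO530, 0.91 in KO484, 0.73 in WT523 and 0.70 in KO564, and lay between −1.50 (KO488) and −0.18 (WT547) in the other 7 mice. The genotypes overlapped on this axis, with 4 KO mice at one end and KO488 at the other. The summed dentate granule markers (6 genes) followed the same division of the mice. They stood between 11553 and 12741 in the 5 mice with positive scores and between 6777 and 9763 in the others, with WT522 (6777) and KO488 (7886) lowest. The part of cell composition, or of where the tissue was cut, in this component was not tested.

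The second component held 18.7% of the variance and set WT522 apart, with a score of 1.72 against −0.40 to 0.48 in the other mice. WT522 had the highest value of the 12 mice in 13 of the 41 genes. Homer1, a scaffold gene whose short form is induced by neuronal activity, stood at 4929 in WT522 while the other WT mice had 2264 to 2591. Shank2 stood at 9199.6, above 5775 to 6349 in the other WT mice. Grik3 stood at 1.70-fold, Shank1 at 1.42-fold and Dlg2 at 1.39-fold the mean of the other WT mice, while Camk2b (0.785-fold) and Gria1 (0.776-fold) were lower there. The activity-induced gene Arc was also highest in this mouse, at 7766 against 2924 to 6377 elsewhere. Without WT522 the log2 fold change of Homer1 was 0.06 in place of −0.11, that of Shank1 0.13 and that of Shank2 0.09, and none of the 3 passed (adjusted p from limma 0.806, 0.292 and 0.345).

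**Figure D5:**
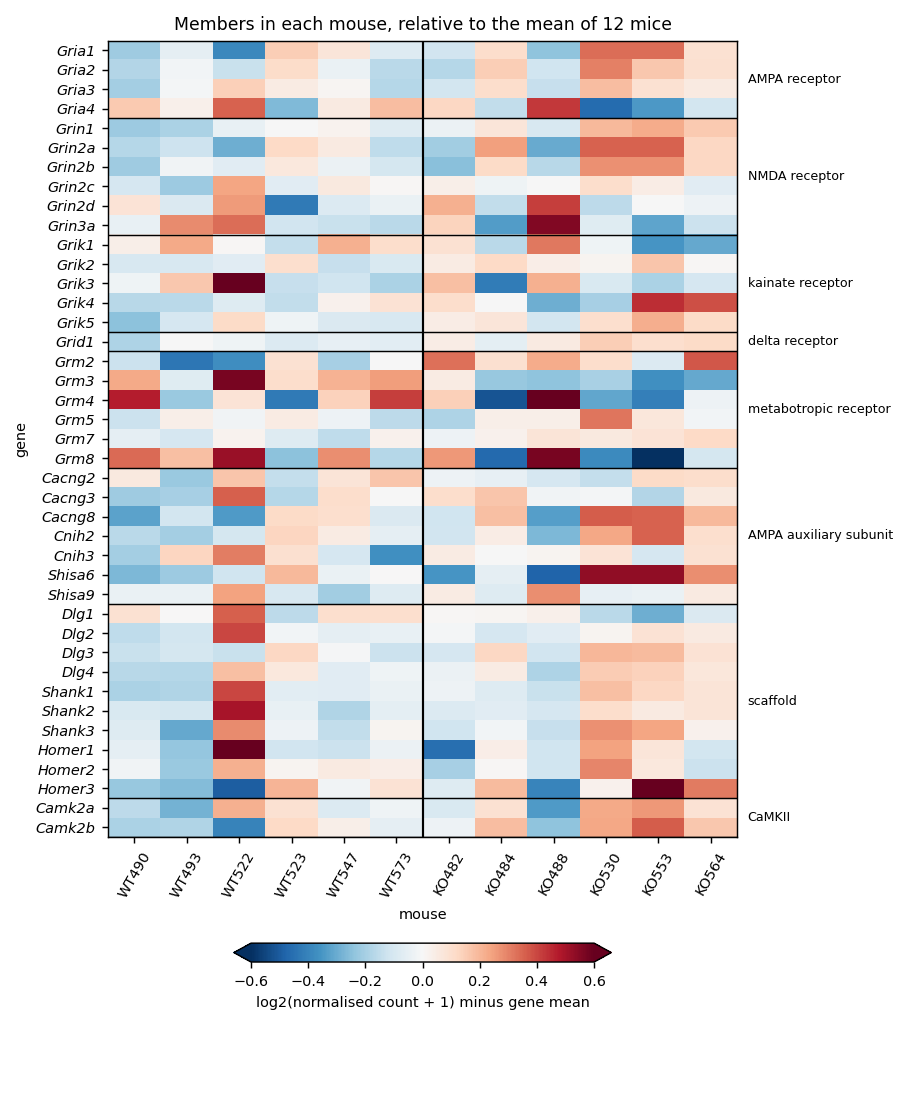
The map shows, for each of the 41 genes (rows, by class) in each of the 12 mice (columns), the log2 normalised count minus the mean of the gene over all mice, with red for higher and blue for lower values and colours that stop at the ends of the scale. KO530 and KO553 are high and KO488 low in genes of the first component such as Shisa6 and Cacng8, and WT522 is high in Homer1, the Shank genes and Grik3.

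Sex was examined because the genotypes held unequal numbers of females and males. With genotype in the model, 0 members differed between the sexes with limma, where 0.0549% of all genes were called, and 1 had an unadjusted p under 0.05 against 6.45% of all genes. edgeR also called 0 members, with 1 at an unadjusted p under 0.05. That member was Grik4, with a log2 difference of male over female of 0.24 (limma adjusted p = 0.749). No gene was called for an interaction of sex and genotype by limma or by edgeR, and 2 members had an unadjusted p under 0.05 with each tool, against 3.45% of all genes with limma. Grik4 ranged from 1534 to 2088 in the 4 KO males and from 1252 to 1335 in the 2 KO females, while WT females (1366 to 1631) and WT males (1372 to 1560.1) overlapped. Grik1 stood at 384 to 387 in the 2 WT males and 300.1 to 356 in the 4 WT females, against 258 to 352 in KO males and 325 to 412 in KO females. With as few as 2 mice in a group, these differences are descriptions.

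Genes around the receptors were taken from 4 further lists of 79 genes in all, each of which was tested. In these, 0 genes passed the adjusted threshold with limma, 8 had an unadjusted p under 0.05, all higher in KO mice, and 59 had a log2 fold change above 0, with a median of 0.07. Over all genes tested, 13.5% had an unadjusted p under 0.05 (5.92% higher) and 49.8% a log2 fold change above 0. Partners of the postsynaptic density, such as the Dlgap scaffolds and the neuroligins, were above 0 in 22 of 23 genes with a median of 0.09. They included 6 of the 8 genes with an unadjusted p under 0.05, of which the adhesion molecule Lrrc4 had the lowest p (0.15 on the log2 scale, unadjusted p = 0.0140, limma adjusted p = 0.222, named after its values were seen). Signalling molecules downstream of the receptors were above 0 in 17 of 22 genes with a median of 0.08, and trafficking and further auxiliary proteins in 14 of 20 with a median of 0.05. Genes of glutamate supply and uptake, such as the vesicular and glial transporters, were above 0 in 6 of 14 with a median of −0.01. The 4 lists were chosen with earlier results of these data known. They were measured in the same libraries as the members and are not independent of them.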

How the data were processed

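RNA of 12 hippocampi was extracted by the authors, who report RNA integrity numbers above 7.0. The methods name the RNA-Seq alignment app of Illumina Basespace, STAR and DESeq2, and the submitters' processing notes name mm10, STAR 2.5.0a and edgeR 3.22.2. The counter, annotation and strandedness are not given in the sources used here, so reads of a gene and of an antisense or overlapping gene cannot be told apart. Each deposited value is a signal, namely a read count that the authors normalised by the size factor of its library. Values fell on whole multiples of a step in every library (100% of them, tolerance 0.01 reads), and division by the step recovered whole reads. The deposited coordinates correspond to GRCm38, and 98.8% of the rows, all 41 members among them, had the coordinates of GENCODE M21.

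R 4.3.3 and limma 3.58.1 were used to compare genotypes, two-sided and with genotype as sole term, from log2(normalised count + 1) and a mean-variance trend, over 18221 genes with a mean of at least 10, with Benjamini-Hochberg adjustment over all of them and a threshold of 0.05. Fold changes are on this scale. Sex was tested with genotype in the model, and the interaction with both. Single genes, ratios and summed markers were compared with two-sided exact permutation tests over 924 assignments, of which the smallest p is 0.00216. The alternatives comprised leaving out each mouse, adding sex as a covariate, edgeR 4.0.16 or DESeq2 1.42.0 on recovered reads, limma with no trend, other scalings, pseudocounts of 0.5 and 5, a mean limit of 50 or none, and a threshold of 0.1. Leaving out both mice high in choroid plexus or thalamus markers was chosen after seeing the data. Steps were tested on simulated data. Plots used Python 3.11.15 and matplotlib 3.10.9.

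Named were members past the threshold or with an unadjusted p under 0.05, the most abundant and the most changed gene of each class, and the genes of the 5 ratios, with other members and Lrrc4 named after their values were seen. The members and lists were chosen with earlier results of these data known. 1 gene was taken out of these lists and is not reported. The labels do not describe technical repeats, and each library is 1 mouse. The sexes are those of the labels, which differ from those in the description of the sequenced mice in the study.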

Additional observations from a re-analysis of the deposited data

Results flagged for a closer look

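In each gene and genotype the highest or lowest mouse was compared with the rest by Dixon's criterion. It stood apart in 8 of 82 groups, where chance gives about 4.1. In 6 of the 8 the mouse was WT522, with 4929 normalised counts of Homer1 (2264 to 2591 in the other WT mice), 26307 of Shank1 (17455 to 19369), 9199.6 of Shank2 (5775 to 6349), 11660.0 of Dlg2 (7966 to 8751), 2929 of Grik3 (1571 to 2002) and 1813 of Shisa9 (1328 to 1492). These genes were measured in the same library and are not independent of each other. The others were Grik2 in WT523, with 1864 against 1578 to 1655, and Shisa9 in KO488, with 1859 against 1454 to 1590.4.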

How the results depend on the processing

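The number of members past the adjusted threshold was 1 (Grm3). It was 0 with no limit on the mean, with libraries rescaled to the same total, with quantile normalisation, with sex as a covariate, with limma without the trend, and without both mice high in choroid plexus markers or both high in thalamus markers. It was 2 with DESeq2 on recovered reads, and ranged from 0 to 1 over the fits that each left out 1 mouse. In all, 16 of 25 alternatives gave 0, and the cause was not tested. Of the 22 members named for their p, size of change, level or place in a ratio, 19 kept their sign in all 24 alternatives, and 20 passed the threshold in none of them. Shank1, Camk2a and Dlg4, each near 0, changed sign in 1 or 2. The other members are not in this count. Homer1 (−0.11, and 0.06 without WT522), Homer2, Dlg2, Shank2, Grin2c, Grin3a and Cacng3 among them also changed sign in at least 1 alternative. The median log2 fold change of the members was 0.08 when libraries were rescaled to the same total and 0.06 with quantile normalisation, with 28 and 27 genes above 0. The number above 0 was 23 without both mice high in choroid plexus markers, 28 without both high in thalamus markers, 32 with sex as a covariate, 30 without KO488 and 33 without WT522. Of all 18221 genes, 9278, 8904, 9204, 8959 and 9284 were above 0 in these fits, in the same order. Leaving out each mouse, the log2 ratio of Camk2a to Camk2b and that of Dlg4 to Dlg1 differed between genotypes by −0.18 to −0.038 and by 0.17 to 0.30. Without WT493 or WT547 the first, and without WT523 or KO488 the second, had an unadjusted exact permutation p under 0.05. No paired analysis was made, because WT and KO mice are different animals and the labels used here name no litters.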
